A study of Mus musculus with 2 samples.

Results

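Interferon-high DN3 thymocytes are Ptcra-positive thymocytes, at the CD4/CD8 double-negative 3 (DN3) stage, with few transcripts of cycling genes and many of interferon-stimulated genes. They were selected on the measured values. A cell had to hold at least 5 unique molecules (UMIs) summed over Isg15, Ifit1, Rsad2 and Oasl2, called the rule genes below. It also had to hold at least 3 Ptcra UMIs, at most 1 Cd8a or Cd8b1 UMI, no Foxp3 UMI and at most 2 UMIs of the cycling genes Rrm2, Top2a, Mki67 and Ube2c, and to pass the cell filter of 500 or more genes, 1000 or more UMIs and mitochondrial reads of 10% or less. The rule found 18 cells in the cKO library and 155 in the WT library, which makes 173 of 14638 cells that passed the cell filter and 173 of 1577 cells in the DN3 gate. The 559 cKO and 845 WT cells of the same gate with at most 4 such UMIs, the interferon-low DN3 cells, are the comparison. Both classes were set by the rule-gene counts, so their differences are given as descriptions and were not tested.

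The study profiled mouse thymocytes enriched with anti-CD25 beads, in 1 droplet library from SETDBf/fCD4-Cre mice (cKO) and 1 from WT mice. Whether the floxed gene is Setdb1 or Setdb2 cannot be read from the label, and animal numbers, ages and strains are not given in the sources. CD25 is carried by DN2 and DN3 thymocytes and by regulatory T cells, and CD4-Cre is known to act from the end of the double-negative stage on. A 3′ tag outside the deleted exons does not check the deletion, and in the DN3 gate Setdb1 and Setdb2 together had 42.1 CPM (UMIs of a gene scaled to a class total of 1000000) in cKO and 40.4 CPM in WT, a ratio of 1.04 (0.881 to 1.23). With 1 library per genotype there is no replicate, cells are not replicates, and no p-value is given. Intervals in parentheses cover 95% of counting error only, not differences between mice, bead enrichments or captures. Those of UMI sums and their ratios also leave out the spread between cells, so they are narrower than the cells warrant. The genotype cannot be told apart from the library.

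As background, type I interferons bind IFNAR1 and IFNAR2, which activate the kinases JAK1 and TYK2. A complex that holds STAT2 and IRF9 then enters the nucleus and binds interferon-stimulated response elements (ISRE) in the promoters of antiviral genes. Interferon-gamma uses another receptor and acts through GAS elements. Thymic epithelial cells make type I and type III interferons in the absence of infection, and some thymocytes carry interferon-stimulated transcripts. DN3 cells rearrange Tcrb, pair its product with the pre-TCR alpha chain encoded by Ptcra and depend on Notch signals.

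The cells also held DN3 transcripts outside the genes of the gate, though cells were enriched for CD25, so Il2ra is no independent check. Interferon-low cells held Il2ra at shares of 90.7% in cKO and 91.6% in WT. Il2ra, which encodes CD25, was detected in 17 of 18 cKO cells (94.4%) and 147 of 155 WT cells (94.8%) of the interferon-high class, and Notch1 in 18 of 18 and in 152 of 155. Cd4 was detected in 0 of 18 cKO interferon-high cells, where the limit set by 3 counts is 16.7% of cells with a UMI, and in 17 of 559 cKO interferon-low cells (3.04%). In WT it was detected in 6 of 155 interferon-high (3.87%) and 8 of 845 interferon-low cells (0.947%). The WT share was thus higher in the interferon-high class, from 9 and 8 UMIs, which goes against the double-negative label for those few cells. Median depth was 10040 UMIs in cKO interferon-high and 8415 in cKO interferon-low cells, and 9338 UMIs in WT interferon-high and 8400 in WT interferon-low cells. The median share of mitochondrial UMIs was 5.73% in cKO interferon-high and 5.78% in cKO interferon-low cells, and 5.75% in WT interferon-high and 5.86% in WT interferon-low cells. A doublet score above 0.290245 was found in 0 of the 18 and 1 of the 155 interferon-high cells, against 6 of 559 cKO and 3 of 845 WT interferon-low cells. The 2 libraries shared 16 barcode sequences, 1 of which was that of a WT interferon-high cell and none that of an interferon-high cell in both.

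Summed markers of other cell types were compared between the WT classes. In the WT cells, the B cell genes Cd79a and Igkc had 0 UMIs in interferon-high cells, against 59 and 89 UMIs in interferon-low cells, and the 6 B cell markers summed to 153 and 194 CPM (ratio 0.792, 0.689 to 0.907). The macrophage genes C1qa, C1qb, C1qc and Csf1r and the plasmacytoid dendritic cell gene Siglech were also at 0 in the WT interferon-high class. The 10 myeloid and dendritic markers summed to 182 CPM in WT interferon-high and 177 CPM in WT interferon-low cells (ratio 1.03, 0.906 to 1.17), nearly all of it Cst3 and Lyz2. The 8 epithelial and stromal markers summed to 129 and 146 CPM in these classes, mostly Epcam, and the 8 natural killer and innate markers to 348 and 328 CPM, mostly Gzma and Nkg7. In cKO the natural killer and innate markers summed to 495 CPM in interferon-high and 310 CPM in interferon-low cells, and their part in the results was not tested.

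Interferon-high cells made up 18 of 577 cKO and 155 of 1000 WT cells of the DN3 gate, or 3.12% (1.86% to 4.89%) and 15.5% (13.3% to 17.9%). The cKO share was 0.201 times the WT share (0.116 to 0.329). At a threshold of 10 UMIs the shares were 5 of 577 cells (0.867%) in cKO and 56 of 1000 (5.6%) in WT. Cells with no rule-gene UMI made up 66.9% of the cKO and 40% of the WT gate. Median depth of the gate was 8453 UMIs in cKO and 8509.5 in WT. After each cell had been thinned to 2000 UMIs, 12.1% of cKO and 28.7% of WT gate cells kept a rule-gene UMI, a ratio of 0.423 (0.321 to 0.551). No cell type that lacks these transcripts was at hand to set a background. Resting DP cells had the lowest thinned share of the gates compared, 3.47% in cKO and 5.13% in WT. Cells below 2000 UMIs were left out of the thinning. That kept every DN3 gate cell but only 1614 of 2236 cKO and 1247 of 1520 WT resting DP cells.

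**Figure D1:**
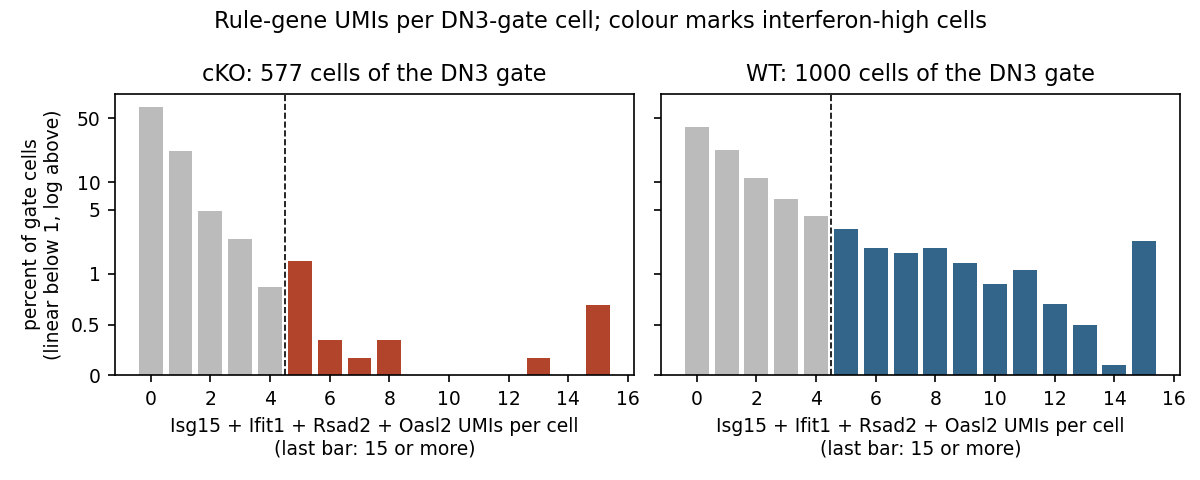
Percent of DN3-gate cells (vertical axis, linear below 1 and logarithmic above) by the number of rule-gene UMIs per cell (horizontal axis), for cKO on the left and WT on the right. The dashed line marks the threshold of 5 UMIs, and the coloured bars, the interferon-high cells, hold 3.12% of cKO and 15.5% of WT gate cells; the last bar holds cells with 15 or more.

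The number of WT cells declined with the number of rule-gene UMIs without a gap at the threshold. In the WT gate 65 cells held 3 UMIs, 43 held 4, 31 held 5 and 19 held 6. Their summed antiviral effectors, a list of 70 genes without the rule genes, stood at 5560, 5963, 5878 and 6301 CPM in the same order. Cells just inside and just outside the threshold thus had similar levels, and the class is a range of a continuous measure rather than a separate group. Rule-gene UMIs per cell ran from 5 to 43 (median 6) in the cKO and from 5 to 53 (median 8) in the WT interferon-high class.

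The rule genes all encode antiviral proteins. Isg15 encodes a ubiquitin-like modifier, Ifit1 a protein that binds viral RNA, Rsad2 the radical-SAM enzyme viperin and Oasl2 an oligoadenylate synthetase-like protein. Isg15 had 554 CPM in cKO interferon-high and 32.3 CPM in cKO interferon-low cells, and 680.1 CPM in WT interferon-high and 75.7 CPM in WT interferon-low cells. Isg15 supplied most of the selecting UMIs, 131 of 207 in cKO and 1082 of 1622 in WT interferon-high cells, and 98.1% of the WT interferon-high cells held at least 1. Ifit1 had 135 CPM in cKO interferon-high and 4.21 CPM in cKO interferon-low cells, and 139.5 CPM in WT interferon-high and 9.35 CPM in WT interferon-low cells. Oasl2 was detected in 65.8%, Ifit1 in 56.1% and Rsad2 in 33.5% of the WT interferon-high cells. Of the 155 WT cells, 26 held UMIs of all 4 rule genes, 50 of 3, 60 of 2 and 19 of only 1. Taking the 4 together, cKO interferon-high cells stood at 875 CPM and WT interferon-high cells at 1020 CPM, a ratio of 0.858 (0.739 to 0.992). These genes selected the cells in both libraries, so this ratio describes the selection.

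The promoters of the rule genes are shown with those of Ifi208 and Irf7, since these genes were selected on or lay among those with the largest folds. Each sequence runs 5′ to 3′ on the gene's strand from 250 bases before to 50 bases after the start in RefSeq, build GRCm38.p6. Capitals mark matches to the ISRE core GAAANNGAAA on either strand, with overlapping matches merged. Isg15 lies at chr4:156200769-156201068 (minus strand), Ifit1 at chr19:34640639-34640938 (plus), Rsad2 at chr12:26456403-26456702 (minus), Oasl2 at chr5:114896684-114896983 (plus), Ifi208 at chr1:173673415-173673714 (plus) and Irf7 at chr7:141266375-141266674 (minus).
Isg15: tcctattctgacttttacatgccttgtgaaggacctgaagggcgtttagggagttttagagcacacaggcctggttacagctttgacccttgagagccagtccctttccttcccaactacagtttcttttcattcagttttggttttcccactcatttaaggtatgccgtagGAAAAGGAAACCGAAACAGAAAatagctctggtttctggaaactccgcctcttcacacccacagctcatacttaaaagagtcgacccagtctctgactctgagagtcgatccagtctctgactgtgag
Ifit1: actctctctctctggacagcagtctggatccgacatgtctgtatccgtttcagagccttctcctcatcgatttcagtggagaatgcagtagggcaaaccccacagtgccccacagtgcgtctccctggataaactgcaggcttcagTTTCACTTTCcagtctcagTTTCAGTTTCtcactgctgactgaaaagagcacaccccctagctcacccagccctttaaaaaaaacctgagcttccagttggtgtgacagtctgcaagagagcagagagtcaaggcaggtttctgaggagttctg
Rsad2: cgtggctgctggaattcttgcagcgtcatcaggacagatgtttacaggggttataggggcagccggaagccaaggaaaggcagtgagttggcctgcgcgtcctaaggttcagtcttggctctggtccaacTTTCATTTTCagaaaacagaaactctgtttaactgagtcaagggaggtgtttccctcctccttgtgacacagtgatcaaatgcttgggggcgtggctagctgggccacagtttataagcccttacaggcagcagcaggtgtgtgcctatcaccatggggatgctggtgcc
Oasl2: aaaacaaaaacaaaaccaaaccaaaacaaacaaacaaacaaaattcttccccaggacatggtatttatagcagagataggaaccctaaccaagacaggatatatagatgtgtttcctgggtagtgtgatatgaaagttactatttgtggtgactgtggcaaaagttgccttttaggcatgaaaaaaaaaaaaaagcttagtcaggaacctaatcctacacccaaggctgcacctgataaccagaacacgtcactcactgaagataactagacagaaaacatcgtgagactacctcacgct
Ifi208: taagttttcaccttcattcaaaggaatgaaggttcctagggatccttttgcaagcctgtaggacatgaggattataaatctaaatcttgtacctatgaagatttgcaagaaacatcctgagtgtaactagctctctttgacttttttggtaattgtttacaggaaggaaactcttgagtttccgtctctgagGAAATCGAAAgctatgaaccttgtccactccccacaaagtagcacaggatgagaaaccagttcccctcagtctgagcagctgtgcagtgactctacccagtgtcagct
Irf7: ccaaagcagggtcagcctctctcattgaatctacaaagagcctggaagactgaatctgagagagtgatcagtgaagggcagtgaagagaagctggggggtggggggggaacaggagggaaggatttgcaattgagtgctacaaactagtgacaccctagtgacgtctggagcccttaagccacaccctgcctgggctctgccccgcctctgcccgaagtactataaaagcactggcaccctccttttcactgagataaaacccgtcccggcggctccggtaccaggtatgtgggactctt

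Isg15 held 3 overlapping matches that began at -78, -72 and -66 from the start, Ifit1 held 2 at -104 and -85, Rsad2 held 1 at -120 and Ifi208 held 1 at -58. Oasl2 and Irf7 held none of these letters in the window, which says nothing of sites elsewhere. Promoters in the table were matched by symbol for 27 of the 37 genes other than the rule genes that were at least 2-fold higher in WT interferon-high cells (below). Of these 27, 15 (55.6%) held the core, against 226 of 5836 (3.87%) of the matched genes compared between the classes and 1079 of 27025 genes (3.99%) in the whole table. The GAS core TTCNNNGAA, searched likewise, was held by 6 of the 27 (22.2%), by 474 of the 5836 (8.12%) and by 2582 of the 27025 (9.55%). The ISRE core was also held by 4 of 9 matched antiviral effectors that differed less than 1.5-fold (44.4%), by 5 of 17 MHC class I genes (29.4%) and by 2 of 19 DN3 and Notch genes (10.5%). These counts describe letters, not occupied sites, and genes of one family such as Ifi206 and Ifi208 can share promoter sequence.

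Outside the rule genes, interferon-high WT cells were set apart from interferon-low WT cells mostly by further interferon-stimulated genes. Of 7180 genes with enough UMIs (a predicted 20 or more in the interferon-high class), 41 were at least 2-fold higher in WT interferon-high cells on the log2(CPM + 5) scale (0.571%) and 0 were at least 2-fold lower (0%). The 41 were the 4 rule genes and 37 others, of which 34 belonged to the lists of antiviral effectors, sensors, GTPases or signal transducers. The 3 outside these lists were Ifitm3, which encodes a membrane protein that blocks viral entry, Ube2l6, the conjugating enzyme for ISG15, and Phf11c. At 1.5-fold, 99 genes were higher (1.38%) and 24 lower (0.334%), around a median log2 fold of 0.02 over all 7180. The filter used the mean of both classes, so a gene could enter through its high level in the interferon-high class, and the counts are descriptions. Under a stricter cell filter, which left 40 WT interferon-high cells, 26 genes were at least 2-fold higher.

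Among the 70 antiviral effectors, 66 were in the files, 2 of these had no UMI in either WT class, 49 passed the filter, 38 were at least 1.5-fold higher in interferon-high WT cells and none was lower by as much. Their median log2 fold was 0.94, and the list summed to 7144 CPM in WT interferon-high and 4441 CPM in WT interferon-low cells, a ratio of 1.61 (1.57 to 1.64). Ifi208 and Ifi206, members of the PYHIN family, had 31.4 and 62.2 CPM in WT interferon-high cells, against 2.6 and 10.7 CPM in WT interferon-low cells. Ifi44 had 110.6 CPM in interferon-high and 23.5 CPM in interferon-low WT cells, from 176 and 181 UMIs. Rtp4, an interferon-induced transmembrane protein, had 193 and 46.9 CPM in these classes, a log2 fold of 1.93. Oas3, an oligoadenylate synthetase that activates RNase L, had 24.5 and 3.38 CPM, and Oasl1 had 25.1 and 5.59 CPM. Slfn5 and Slfn8 of the Schlafen family had log2 folds of 2.02 and 1.49, Xaf1 1.66, Trim30a 1.57 and the double-stranded RNA kinase gene Eif2ak2 1.09. PYHIN, Schlafen, TRIM and GBP genes have close paralogs, and the counting could divide reads among them.

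Some interferon-inducible genes were already abundant in interferon-low cells and differed little. Bst2, which encodes the virion tether tetherin, had 767 CPM in WT interferon-high and 591 CPM in WT interferon-low cells (log2 fold 0.37), and was detected in 98.7% and 96.9% of them. Ifi27 had 458 and 342 CPM (0.42), Ly6e 1164 and 1091 CPM (0.09), Apobec3 218 and 173 CPM (0.33) and Lgals9 231 and 212 CPM (0.13). The fold of the summed list was therefore smaller than that of most of its members.

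**Figure D2:**
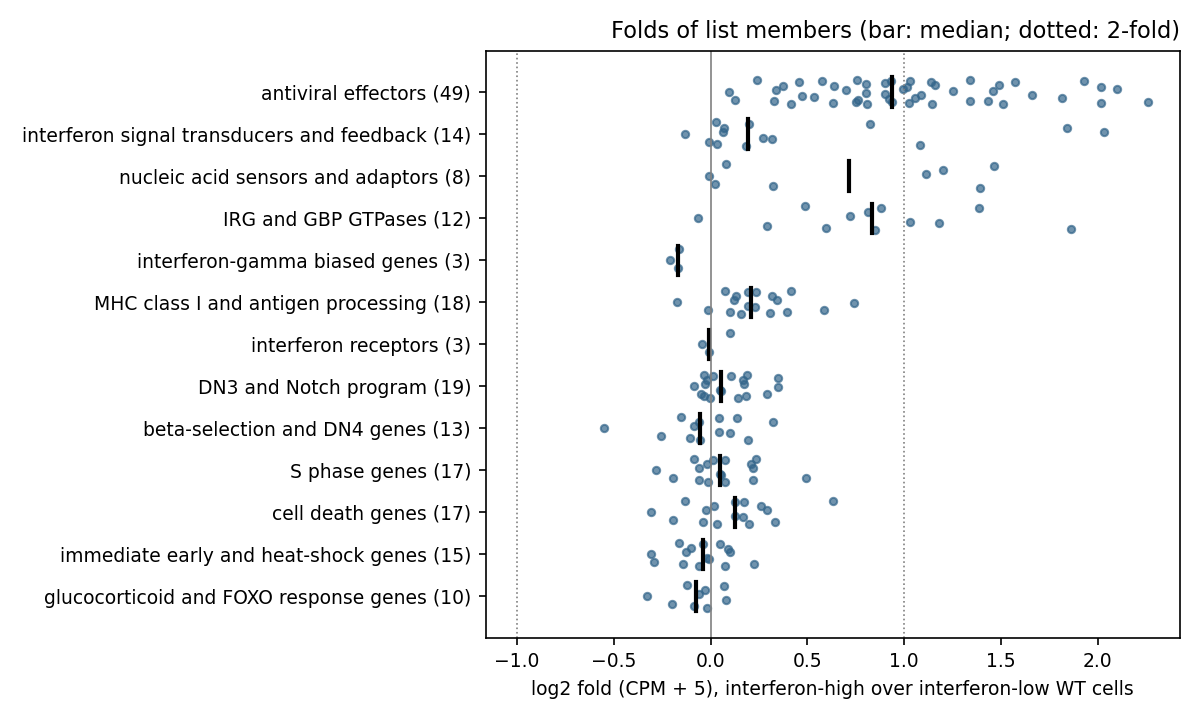
Log2 fold between interferon-high and interferon-low WT cells (horizontal axis, on the CPM + 5 scale) for each list member that passed the filter, with 1 row per list, its number of genes in parentheses and its median as a black bar. Antiviral effectors and IRG and GBP GTPases have medians of 0.94 and 0.83, and the DN3 and Notch program has a median of 0.05.

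Among nucleic acid sensors and adaptors, 15 were in the files, 8 passed the filter and 4 of these were at least 1.5-fold higher in WT interferon-high cells. The cytosolic RNA sensor gene Ddx58, which encodes RIG-I, had 81.7 CPM in interferon-high and 28.1 CPM in interferon-low WT cells. Ifih1, which encodes MDA5, had 68.5 and 27.0 CPM, their regulator Dhx58 had 46.5 and 13.6 CPM and Zbp1, a sensor of Z-form nucleic acid, had 104 and 45.2 CPM. The adaptor and kinase genes downstream of such sensors differed little: Sting1 had 17.6 and 17.3 CPM, Tbk1 19.5 and 18.2 CPM and Irf3 42.7 and 43.0 CPM.

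Of the 12 IRG and GBP GTPases that passed the filter, of 17 in the files, 9 were at least 1.5-fold higher and none lower by as much. These GTPases act against pathogens inside vacuoles. The list summed to 1092 CPM in WT interferon-high and 670 CPM in WT interferon-low cells, a ratio of 1.63 (1.54 to 1.72). Iigp1, a marker of the class that the rule did not use, had 72.3 CPM in interferon-high and 16.2 CPM in interferon-low WT cells, and was detected in 41.3% and 11.4% of them. Irgm1 had 103 and 42.7 CPM, Igtp 71.0 and 32.2 CPM, Tgtp2 25.8 and 6.76 CPM and Gbp7 165 and 87.4 CPM. Gbp4 (168 and 136 CPM) and Gbp8 (145 and 151 CPM) differed little.

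Of 14 signal transducers and feedback genes that passed the filter, 4 were at least 1.5-fold higher in WT interferon-high cells, with a median log2 fold of 0.19 over the 14. Irf7, the transcription factor that amplifies type I interferon production, had 110.6 CPM in interferon-high and 23.3 CPM in interferon-low WT cells, with a log2 fold of 2.03. Usp18, which removes ISG15 and damps IFNAR2 signalling, had 64.1 and 14.3 CPM. Irf9, a DNA-binding subunit of the interferon-activated complex, had 84.2 and 45.5 CPM in these classes. These 3 genes were among the 4, whereas other inducible members differed less. Stat2 had 15.7 and 14.8 CPM (ratio 1.06, 0.659 to 1.65), Jak1 189 and 184 CPM, Socs1 149 and 123 CPM (ratio 1.21, 1.05 to 1.40) and Irf1 95.5 and 82.5 CPM (ratio 1.16, 0.964 to 1.38). Ifnar1 had 42.1 and 43.5 CPM, Ifnar2 40.9 and 37.8 CPM and Ifngr1 222 and 223 CPM. Ifnlr1, the specific chain of the type III interferon receptor, had 0 UMIs in every class.

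Interferon transcripts themselves were nearly absent from the gate. Of 21 interferon genes in the files, 19 had 0 UMIs in both WT classes, Ifnb1 among them. Ifng had 7 UMIs in WT interferon-high and 36 in WT interferon-low cells, or 4.40 and 4.68 CPM. Of 14 genes chosen as more responsive to interferon-gamma, 4 had 0 UMIs in both WT classes and only 3 passed the filter, none 1.5-fold different. Icam1 had 18.9 CPM in interferon-high and 21.7 CPM in interferon-low WT cells, Cd274 11.9 and 14.0 CPM and H2-DMa 50.3 and 59.0 CPM. The list does not hold the IRG and GBP GTPases given above. With so few genes compared it cannot tell the interferon types apart, which was not tested. The 14 genes of that list in the files summed to 93.03 and 108 CPM (ratio 0.859, 0.716 to 1.02), and Cxcl9 was at 0 UMIs in both.

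MHC class I genes, which present peptides to CD8 T cells and respond to both interferon types, were slightly higher. The 21 genes summed to 5946 CPM in WT interferon-high and 5213 CPM in WT interferon-low cells, a ratio of 1.14 (1.12 to 1.17). Only H2-T23, which encodes the nonclassical molecule Qa-1, and Tapbp, the peptide-loading factor tapasin, of 18 that passed the filter, were at least 1.5-fold higher. H2-T23 had 224 and 132 CPM and Tapbp 169 and 111 CPM. B2m had 1780 and 1520 CPM, H2-K1 520.5 and 478 CPM and Tap1 83.0 and 66.0 CPM.

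The DN3, beta-selection, early DN and DP lists differed little between the WT classes, while the mature thymocyte list summed somewhat higher in interferon-high cells. None of the 19 DN3 and Notch genes that passed the filter differed 1.5-fold in WT, their median log2 fold was 0.05 and they summed to 14422 CPM in interferon-high and 13483 CPM in interferon-low cells (ratio 1.07, 1.05 to 1.09). Il2ra had 775 CPM in interferon-high and 608 CPM in interferon-low WT cells, Notch1 683 and 609 CPM, Notch3 195 and 199.8 CPM and Rag1 503.5 and 443 CPM. The beta-selection and DN4 list summed to 3936 CPM in interferon-high and 4306 CPM in interferon-low WT cells (ratio 0.914, 0.889 to 0.939). None of its 13 genes that passed the filter differed 1.5-fold, with Cd28, a costimulatory receptor gene that rises after beta-selection, lowest at 43.4 and 65.9 CPM (log2 fold -0.55). In WT, none of 6 early DN, 7 DP, 17 S phase, 15 immediate early and heat-shock or 10 glucocorticoid and FOXO response genes passed 1.5-fold either way. Casp1, an inflammatory caspase gene, was the exception among 17 cell death genes (20.1 and 11.2 CPM, log2 fold 0.63), and Ms4a4b among 3 mature thymocyte genes (49.7 and 30.8 CPM, 0.61). The 7 mature thymocyte and egress genes summed to 362 CPM in WT interferon-high and 292 CPM in WT interferon-low cells (ratio 1.24, 1.13 to 1.36). In cKO they summed to 389 and 314 CPM (ratio 1.24, 0.992 to 1.53). Whether more mature cells lay in the interferon-high class was not tested. The 10 lowest genes lay between -0.70 and -0.84, from 17 to 36 UMIs in WT interferon-high cells. Rara, the retinoic acid receptor alpha gene, was lowest with 10.7 CPM in interferon-high and 23.1 CPM in interferon-low WT cells, and Bambi, which encodes a decoy receptor of the TGF-beta family, had 10.7 and 21.7 CPM. Dqx1, at -0.82 in WT, stood at 131 CPM in cKO interferon-high and 51.7 CPM in cKO interferon-low cells.

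Levels were higher at each step in the number of rule-gene UMIs in the WT gate. For cells with 0, 1 to 2, 3 to 4, 5 to 9 and 10 or more rule-gene UMIs, the antiviral effectors stood at 4051, 4430, 5726, 6497 and 8208 CPM. Irf7 stood at 13.0, 25.02, 51.0, 98.1 and 131 CPM in the same order, and Iigp1 at 8.67, 21.2, 26.0, 47.5 and 113 CPM. Interferon-stimulated transcripts were thus graded among cells below the threshold too. The DN3 and Notch program stood at 13367, 13602, 13503, 14519 and 14264 CPM, without such an order. In the cKO gate the antiviral effectors stood at 3580, 4105, 4932, 6197 and 7660 CPM over the same steps, the last from 5 cells. The DN3 and Notch program there stood at 12561, 12880, 12916, 11772 and 9316 CPM, lowest in those 5 cells, which include the deepest one.

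**Figure D3:**
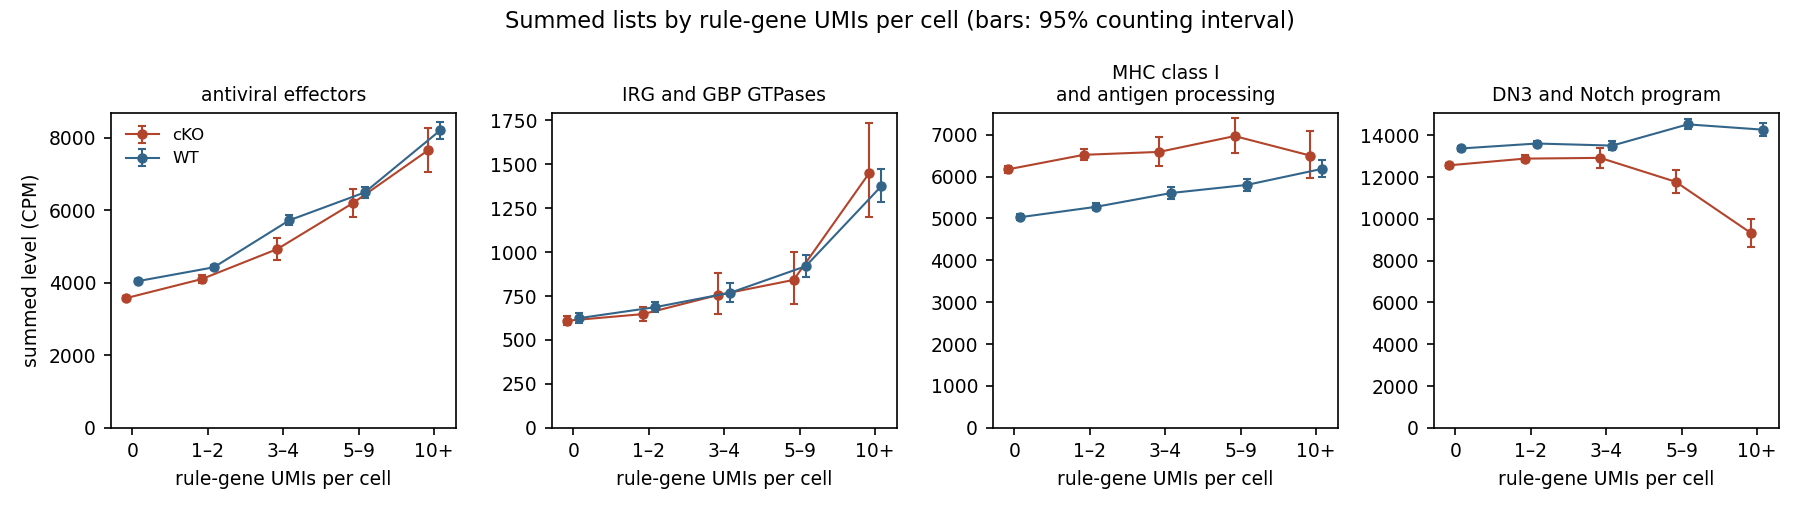
Summed CPM of 4 gene lists (vertical axes, from 0) by rule-gene UMIs per cell (horizontal axes), for cKO and WT gate cells, with 95% counting intervals as bars. Antiviral effectors and GTPases are higher at each step in WT, and the DN3 and Notch program is not.

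The interferon-high cells differed widely among themselves. Antiviral effectors took a median of 68.7 of each 10000 UMIs in WT interferon-high cells, with a range of 32.6 to 249, against a median of 42.6 and a range of 7.82 to 134 in WT interferon-low cells. The classes overlapped, and 144 of the 155 cells lay above the interferon-low median and 130 above its upper quartile. Across the 155 cells, the rule genes per 10000 UMIs followed the antiviral effectors with a Pearson correlation of 0.74 and a Spearman correlation of 0.60. The same measures were 0.73 and 0.53 for the GTPases, 0.32 and 0.32 for MHC class I and 0.05 and 0.23 for the DN3 and Notch program. All these cells share a library, and both measures share the cell's depth, so the correlations are given as descriptions.

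In the cKO library, whose cells were not used to name the 37 genes, the same rule set the classes. All 37 had positive log2 folds between interferon-high and interferon-low cKO cells, 28 of them at least 2-fold, with a median of 1.66. Over the 7180 genes compared in WT, likewise with no filter in cKO, 47.2% had positive log2 folds and 1.6% were at least 2-fold higher, with a median of -0.03. Only 5 of the 37 had enough UMIs to pass the filter in 18 cells, and these 5 were at least 2-fold higher, where 17 of 1725 genes were (0.986%). Irf7 had 101 CPM in cKO interferon-high and 10.7 CPM in cKO interferon-low cells, and Usp18 had 101 and 8.99 CPM. Of the 24 Usp18 UMIs in cKO interferon-high cells, 22 came from the 5 cells with 10 or more rule-gene UMIs, and the other 13 cells held 2 (13.0 CPM, 1.57 to 46.8). Antiviral effectors summed to 6705 CPM in cKO interferon-high and 3785 CPM in cKO interferon-low cells, a ratio of 1.77 (1.68 to 1.86). The DN3 and Notch program, in contrast, summed to 10920 CPM in cKO interferon-high and 12665 CPM in cKO interferon-low cells (ratio 0.862, 0.829 to 0.897). A single cell held 40848 of the 236548 UMIs of the cKO interferon-high class. Without it, a setting chosen after seeing the data, this ratio was 0.932 (0.894 to 0.972) and that of the antiviral effectors 1.78.

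**Figure D4:**
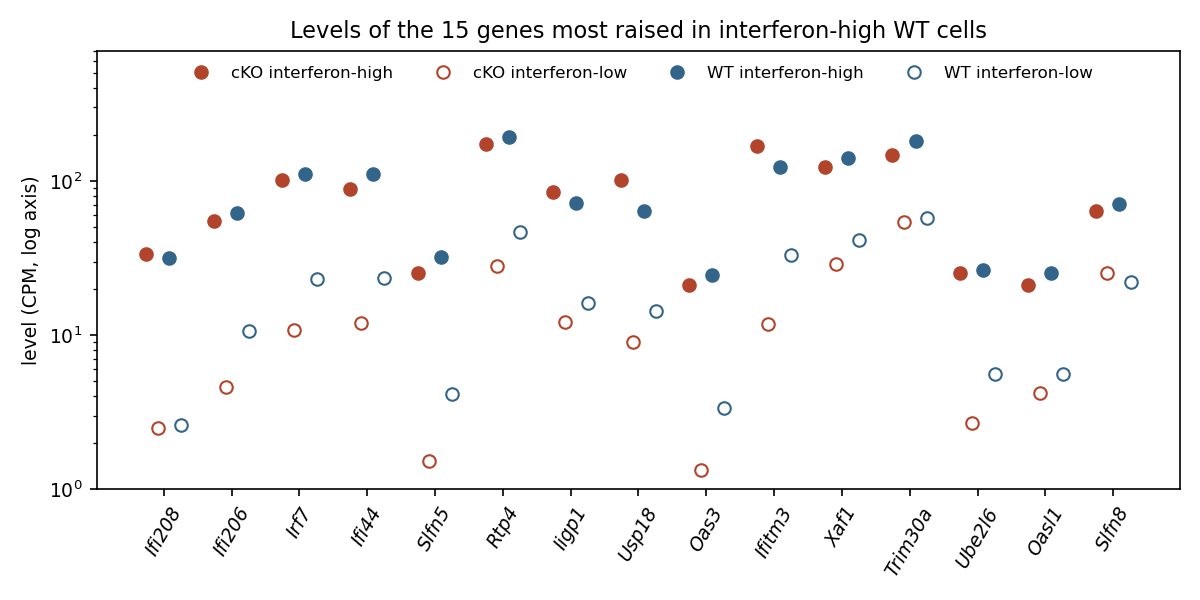
Levels in CPM (vertical axis, logarithmic) of the 15 genes with the largest folds in WT outside the rule genes, in the interferon-high (filled) and interferon-low (open) cells of cKO (red) and WT (blue). In both libraries every filled point lies above its open one, and the open cKO points lie below the open WT points for all of them except Slfn8.

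Between the genotypes, antiviral effectors were compared within each class, although the rule-gene counts set the classes in both libraries. Antiviral effectors summed to 6705 CPM in cKO and 7144 CPM in WT interferon-high cells, a ratio of 0.939 (0.890 to 0.989). In interferon-low cells they summed to 3785 CPM in cKO and 4441 CPM in WT, a ratio of 0.852 (0.837 to 0.867). The rule genes summed to 46.7 and 106 CPM there (ratio 0.441, 0.381 to 0.509), which restates the counts that set the class. The difference between these ratios was not tested. The cKO gate held a smaller share of interferon-high cells, and lower antiviral effector sums in the cells below the threshold.

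Over the whole DN3 gate, the rule genes summed to 82.6 CPM in cKO and 262 CPM in WT, a ratio of 0.315 (0.284 to 0.348). Of 9425 genes compared, 53 were at least 1.5-fold lower (0.562%) and 49 at least 1.5-fold higher in cKO (0.52%), around a median log2 fold of -0.04. Of 53 antiviral effectors compared, 14 were at least 1.5-fold lower in cKO and none higher by as much, with a median of -0.39. Irf7 had 14.6 CPM in cKO and 38.2 CPM in WT, Ifitm3 18.7 and 48.8 CPM, Ifi44 15.4 and 38.4 CPM and Rtp4 34.4 and 71.9 CPM. Ifi27, which differed little between the classes in WT, had 167 CPM in cKO and 362 CPM in WT (log2 fold -1.10), and Bst2 442 and 621 CPM (-0.49). This comparison shares its WT cells with the comparison of the WT classes. More interferon-high cells and higher levels per cell cannot be told apart in such sums.

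Of 20 MHC class I genes compared between the genotypes, 3 were at least 1.5-fold higher in the cKO gate and none lower by as much, with a median log2 fold of 0.09. The list summed to 6311 CPM in cKO and 5339 CPM in WT gate cells, a ratio of 1.18 (1.17 to 1.20), with H2-Q7 at 204 CPM in cKO and 46.4 CPM in WT and H2-Q6 at 19.4 and 2.69 CPM. H2-K1 had 715 CPM in cKO and 485 CPM in WT, and H2-D1 771 and 524 CPM. H2-T23 had 133 CPM in cKO and 148 CPM in WT (ratio 0.898, 0.820 to 0.984), and Tapbp 110.4 and 121 CPM (ratio 0.914, 0.826 to 1.01). In the interferon-high cells alone H2-Q7 had 228 CPM in cKO and 41.5 CPM in WT. H2-Q and other class I genes are near-identical to each other and differ between mouse strains, so reads may be divided between them unequally in the 2 libraries, which was not tested. Of 11 glucocorticoid and FOXO response genes 4 were at least 1.5-fold higher in the cKO gate, among them Tsc22d3 (244 CPM in cKO and 100.2 CPM in WT), whose product GILZ mediates glucocorticoid effects, and none was lower by as much. Their part in the lower interferon-stimulated levels was not tested.

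Interferon-stimulated transcripts were not particular to the DN3 gate, and the difference between the libraries was also seen in the earlier, the cycling and the resting DP gates. After thinning, a rule-gene UMI was kept by 16.7% of cKO and 26.1% of WT cells with Kit or Cpa3 UMIs and few Ptcra UMIs, an earlier stage. The shares were 10.7% and 24.5% in cycling Ptcra-positive cells, 3.47% and 5.13% in resting DP cells and 25.9% and 28.7% in Foxp3-positive cells. The rule genes summed to 101 CPM in cKO and 214 CPM in WT Kit or Cpa3 cells, to 50.3 and 152 CPM in cycling cells and to 27.3 and 61.2 CPM in DP cells. In Foxp3-positive cells they summed to 205 CPM in cKO (188 to 222) and 229 CPM in WT (212 to 246), with intervals that overlapped. Foxp3-positive cells also had the highest antiviral effector sums of the 5 gates, 8621 CPM in cKO and 9231 CPM in WT, against 3911 and 4904 CPM in the DN3 gate.

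**Figure D5:**
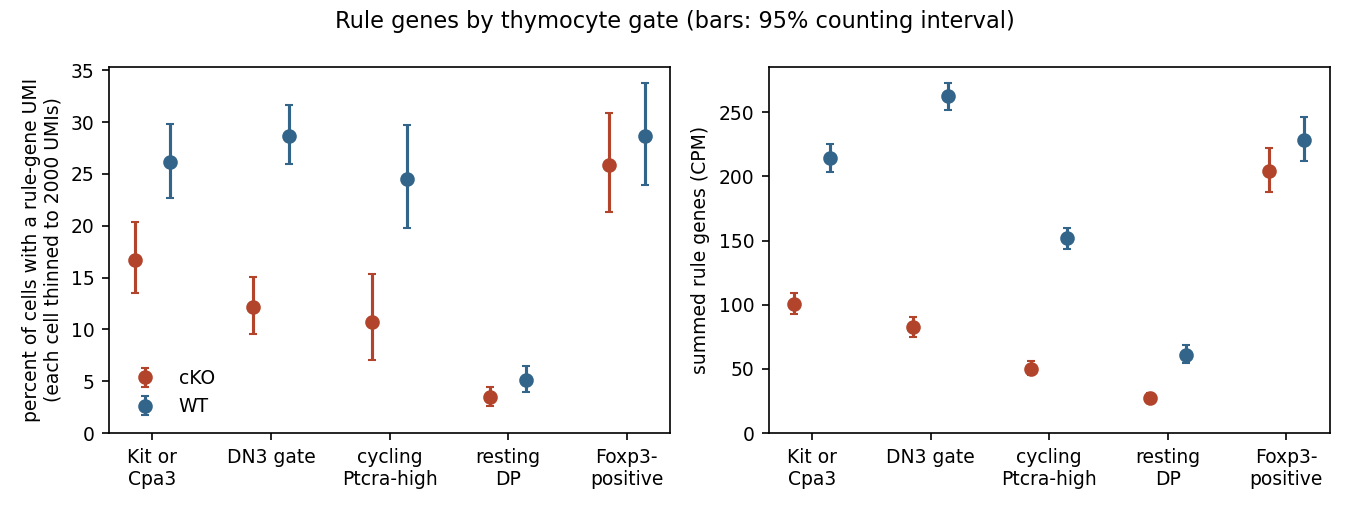
Percent of cells that kept a rule-gene UMI after thinning to 2000 UMIs, shallower cells left out (left), and summed rule-gene CPM (right). Points are given for 5 thymocyte gates, with cKO left of WT and 95% counting intervals as bars. The cKO points lie below the WT points in all 5 gates, and the intervals of the thinned shares overlap in resting DP and in Foxp3-positive cells.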

How the data were processed

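Droplet libraries were made with 10x Genomics 3′ chemistry, per the labels' protocols. The tools named in the submitters' processing notes are Cell Ranger 6.1.1, CASAVA 1.8 and Seurat 4.0.3. The deposited values are unnormalized UMI counts by gene and barcode, written by Cell Ranger per the file headers. Their genome build is not stated in the labels or headers. They held 8461 cKO and 7852 WT barcodes with 76668166 and 89370968 UMIs, of which 7501 and 7137 passed the filter, with medians of 4854 and 7882 UMIs.

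UMIs were summed per class and library and scaled to CPM in Python 3.11.15 with scipy 1.17.1. Folds are log2 of (CPM + 5) ratios, for genes whose mean CPM predicted 20 UMIs in the smaller class. Sums have exact Poisson, shares Clopper-Pearson and ratios exact binomial intervals at 95%, which cover counting error only. Doublets were scored with scrublet in scanpy 1.11.5 at an expected rate of 0.06, with the WT threshold for both libraries, since that of cKO (0.638) called 1 of 7501 cells, and were kept in the main values. Genes named are members of 25 lists, the 15 highest and 10 lowest folds in WT outside the rule genes, and the rule genes; Phf11c, outside that rule, was named after its values were seen. The members and lists were chosen with earlier results of these data known. Promoter sequences come from RefSeq (GRCm38.p6). Alternatives changed the cell filter, gate, threshold, comparison class, depth, summary, pseudocount and thinning. The scripts were tested on simulated counts. Some genes of these lists are counted in the list totals but not reported by name here.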

Additional observations from a re-analysis of the deposited data

How the results depend on the processing

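No paired analysis was possible because each genotype has 1 library, which also means that no replicate was left out. The 18 cKO cells limit what depth can show, and 1725 genes had enough UMIs to compare the cKO classes. Over 98 values of the 9 summary results under other settings, 63 moved by less than their counting interval or 1.5 times, 35 moved further and none changed direction, and the cause was not tested. The share of interferon-high cells in cKO over WT (0.201) lay between 0.141 and 0.244. The summed ratio of antiviral effectors in interferon-high over interferon-low WT cells (1.61) was 1.54 with the stricter cell filter, 1.55 with at least 5 Ptcra UMIs and 1.85 for 10 or more rule-gene UMIs. It was 1.71 with a threshold per depth, 1.55 with Isg15 alone, 1.76 against cells with 0 rule-gene UMIs and 1.66 as a mean over cells. The ratio of GTPases (1.63) was 1.54, 1.51, 2.05, 1.82, 1.49 and 1.75 under the first 6 of these. Without the 10 WT cells of highest sum, a setting chosen after seeing the data, as was the one without the deepest cKO cell, the ratios were 1.54 for antiviral effectors and 1.49 for GTPases. The ratio of MHC class I genes (1.14) was 1.19 for 10 or more UMIs, 1.21 per depth and 1.18 against 0 UMIs. That of the DN3 and Notch program (1.07) was 1.03 with the stricter filter, 1.09 with at least 5 Ptcra UMIs, 1.13 per depth, 1.04 with Isg15 alone and 1.05 within a common depth window. Antiviral effectors in cKO over WT interferon-low cells (0.852) stood at 0.811 with the stricter filter, 0.868 with Isg15 alone and 0.884 for cells with 0 UMIs. Genes at least 2-fold higher numbered 26 with the stricter filter, against 41. Genes at least 2-fold lower, 0 in the settings reported, numbered 1 with the stricter filter, with at least 5 Ptcra UMIs, for 10 or more UMIs, against 0 UMIs and with a pseudocount of 1, then 2 at 10 predicted UMIs and 5 with no filter. The thinned share in cKO over WT was 0.295 for at least 2 UMIs, against 0.423. Of the named genes, Trac, a T cell receptor constant gene, changed direction between cKO and WT gate cells, with a log2 fold of -0.056 with the stricter filter and -0.0073 with no Cd4, Cd8a or Cd8b1 UMI, against 0.64. The 15 genes named for the largest folds in WT outside the rule genes kept log2 folds of at least 1.23 over 12 settings.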
